A study of Mus musculus with 2 samples.

Results

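The cation-chloride cotransporters Slc12a2, Slc12a4, Slc12a5 and Slc12a7 and the kinases that control them, Wnk1, Wnk3, Stk39 and Oxsr1, are described here in RNA from the suprachiasmatic nucleus (SCN), the central circadian clock of the mouse. They were chosen by symbol, and all 8 were found among the 24229 genes of the deposited table. RNA sequencing of polyadenylated RNA had been carried out on SCN tissue of wild type C57BL/6 mice, given in the labels as post natal day 68. After 7 days in constant darkness, 16 mice had been divided into 2 groups of 8, one kept on an NT cycle and the other on an ST cycle, which are light-dark schedules of normal and short period per the series' design text. After 4 weeks both groups went into constant darkness, and the SCN was dissected 5 days later at circadian time 4 h from slices of 250 µm. Counted from the stated starting age of 5 to 6 weeks, these steps come to 75 to 82 days, which is later than the age in the labels. Each group was represented by 1 library, and the labels do not say how many mice it was made from.

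These genes are of interest in the SCN because almost all of its neurons release GABA, and the effect of GABA on a cell depends on the chloride inside it. NKCC1, the product of Slc12a2, carries chloride into cells with sodium and potassium, whereas the potassium-chloride cotransporters carry it out. Of these, KCC2 (Slc12a5) is largely restricted to neurons, and KCC1 (Slc12a4) and KCC4 (Slc12a7) are more widely expressed. WNK kinases sense chloride and activate SPAK (Stk39) and OSR1 (Oxsr1), which phosphorylate the cotransporters, switching NKCC1 on and the potassium-chloride cotransporters off. GABA acts as an excitatory transmitter in part of the SCN, and the balance of NKCC1 and KCC2 there has been tied to day length and time of day.

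Promoter windows of RefSeq (build GRCm38.p6), each running from 250 bases before to 50 bases after an annotated start, were matched by symbol for 7 of the 8 genes, in 9 windows. They were searched on both strands for motifs through which the clock and cyclic AMP are known to act on transcription: the E-box CACGTG, bound by CLOCK and BMAL1, its variant CACGTT, the D-box (TTATGTAA or TTACGTAA) and the cyclic AMP response element TGACGTCA. The E-box was found for 2 genes, Slc12a5 and Slc12a7, and occurs in 7.15% of all 32851 windows. This share, like those below, is per window and not per gene, and Slc12a5 and Slc12a7 had 2 windows each. The windows with an E-box here also held 66.7% to 69.3% GC, against a median of 52.7% over all windows. The cyclic AMP response element was found for 1 gene, Oxsr1, and occurs in 1.79% of all windows. The variant CACGTT (4.68% of all windows) and the D-box (1.06%) were found for 0 of the 7 genes. The stretches that hold these matches are shown 5′ to 3′ because they are the only matches to these motifs upstream of the annotated starts of the 7 genes. They end at or before the annotated start, and the motif is in capitals. A match is a description of the sequence only.
Slc12a5, second annotated start, chr2:164967912-164967987, plus strand: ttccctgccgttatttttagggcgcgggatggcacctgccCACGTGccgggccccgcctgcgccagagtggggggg
Slc12a7, second annotated start, chr13:73763619-73763696, plus strand: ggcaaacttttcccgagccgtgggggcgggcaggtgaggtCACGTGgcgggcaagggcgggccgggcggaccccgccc
Oxsr1, chr9:119322428-119322484, minus strand: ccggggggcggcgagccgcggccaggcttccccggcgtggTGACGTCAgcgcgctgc

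The E-box begins 36 bases before the second start of Slc12a5 and 38 bases before the second start of Slc12a7, and the window of the first Slc12a5 start holds none of these motifs. The 2 windows of Slc12a7 overlap and share a single E-box. The element of Oxsr1 begins 17 bases before its start. As the series is about DNA methylation, CpG dinucleotides, the sites of that methylation, were also counted in each window. The windows of Slc12a4, both starts of Slc12a5, Slc12a7, Wnk1, Stk39 and Oxsr1 held 20 to 49 CpG dinucleotides, with the highest number at Stk39, against a median of 7 over all windows (quartiles 3 and 20). The Wnk3 window stood apart with 2.

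In mm9 coordinates, the build named in the submitters' processing notes, Slc12a2 (ENSMUSG00000024597) lies on the plus strand of chromosome 18 from 58037369 to 58106475, and Slc12a5 (ENSMUSG00000017740) on the plus strand of chromosome 2 from 164786316 to 164825227. Slc12a4 (ENSMUSG00000017765) is on the minus strand of chromosome 8 from 108467490 to 108489997. Slc12a7 (ENSMUSG00000017756) is on the plus strand of chromosome 13 from 73870542 to 73954200. Wnk1 (ENSMUSG00000045962) is on the minus strand of chromosome 6 from 119874356 to 119987797, and Wnk3 (ENSMUSG00000041245) on the plus strand of chromosome X from 147632683 to 147754695. Stk39 (ENSMUSG00000027030) is on the minus strand of chromosome 2 from 68048502 to 68310325, and Oxsr1 (ENSMUSG00000036737) on the minus strand of chromosome 9 from 119147550 to 119231545. The genes span from 22.5 kb (Slc12a4) to 262 kb (Stk39), and their GENCODE vM1 transcript models number from 2 (Slc12a2) to 21 (Wnk1).

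The level of each gene was read from the deposited RPKM, reads per kilobase of gene and per 1000000 counts, which is the scale on which genes of different length can be compared. Slc12a5, the neuronal chloride exporter, was by far the most abundant of the 8, at 72.9 RPKM in ST and 72.2 in NT. Wnk1 followed at 27.9 in ST and 27.1 in NT. Slc12a2, the chloride importer, came next at 14.7 in ST and 16.4 in NT. The order went on through both kinases that act directly on the cotransporters, Oxsr1 at 12.6 in ST and 13.4 in NT and Stk39 at 10.3 in ST and 10.7 in NT. The low end held the widely expressed exporters and a WNK. Slc12a7 stood at 7.49 in ST and 8.11 in NT. Slc12a4 had 6.98 in ST and 8.10 in NT. Wnk3 was lowest at 6.94 in ST and 6.52 in NT. The 8 genes thus lay on both sides of the median RPKM of all measured genes, 9.21, and Slc12a5 was above 93.9% of them.

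**Figure D1:**
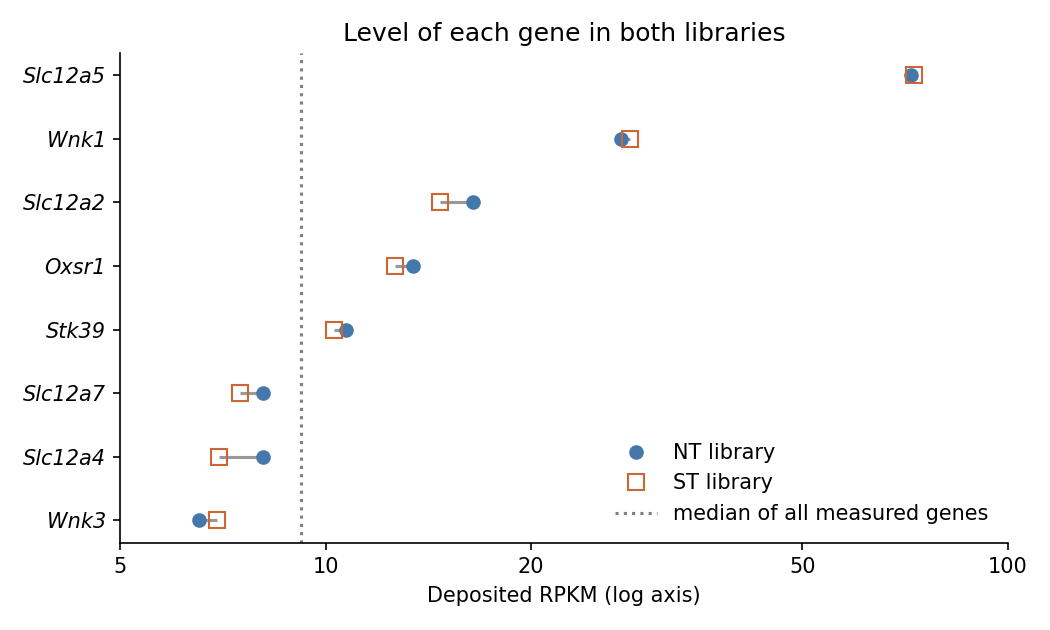
Deposited RPKM (log axis) of each of the 8 genes in the NT library (filled circles) and the ST library (open squares), 1 library per group, with the median of all measured genes as a dotted line. Slc12a5 stands at 72.2 and 72.9, and the order of the 8 genes is the same in both libraries.

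The order from highest to lowest was the same in both libraries. At the low end, neighbours lay as close to each other as 1 gene did between libraries. Slc12a7 and Slc12a4 differed by a factor of 1.07 in ST and 1.001 in NT, with ranges that overlapped. Slc12a4 and Wnk3 differed by a factor of 1.01 in ST and 1.24 in NT. Slc12a2 and Oxsr1 were also near each other, at factors of 1.17 in ST and 1.22 in NT, and the Slc12a2 value in ST was nearer to the Oxsr1 value in NT than to its own in NT. The place of Wnk1 rests on the gene length used. Its deposited RPKM implies a length of 9.38 kb, whereas its merged GENCODE vM1 exons come to 14.6 kb. Divided by the annotated length, a choice made after its values were seen, Wnk1 had 17.9 reads per kilobase and per 1000000 counts in ST and 17.4 in NT. On that scale Slc12a2 had 16.8 in ST and 18.8 in NT, so the order of these 2 genes turned in the NT library. So did that of Slc12a7 and Slc12a4, which on that scale stood at 7.29 and 6.99 in ST and at 7.89 and 8.11 in NT.

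By deposited RPKM, a single gene held over 50% of the sum in both libraries among the cation-chloride cotransporters compared, and likewise among the WNK kinases. Over 6 cation-chloride cotransporters (Slc12a1, Slc12a2, Slc12a3, Slc12a4, Slc12a5 and Slc12a7), Slc12a5 made up 71.2% in ST and 68.7% in NT. Slc12a2 made up 14.4% in ST and 15.6% in NT, Slc12a7 7.32% and 7.71%, and Slc12a4 6.83% and 7.71%. The kidney cotransporters Slc12a1 and Slc12a3 were each at most 0.205% of this sum in either library, with 23 and 2 counts in ST. Among WNK kinases, Wnk1 held 53.7% in ST and 55.2% in NT, Wnk2 32.7% and 31.2%, and Wnk3 13.3% in each library. These WNK shares rest on the length of 9.38 kb that the deposited RPKM implies for Wnk1. Divided by its annotated length of 14.6 kb, Wnk1 stood at 17.9 in ST and 17.4 in NT. The deposited RPKM of Wnk2 was 17.0 in ST and 15.3 in NT. Shares by annotated length were not computed for this family. Wnk4, known for its part in the kidney, had 12 counts in ST and 19 in NT. The kinases below the WNKs were more evenly matched, with Oxsr1 at 55.1% of their sum in ST and 55.7% in NT.

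**Figure D2:**
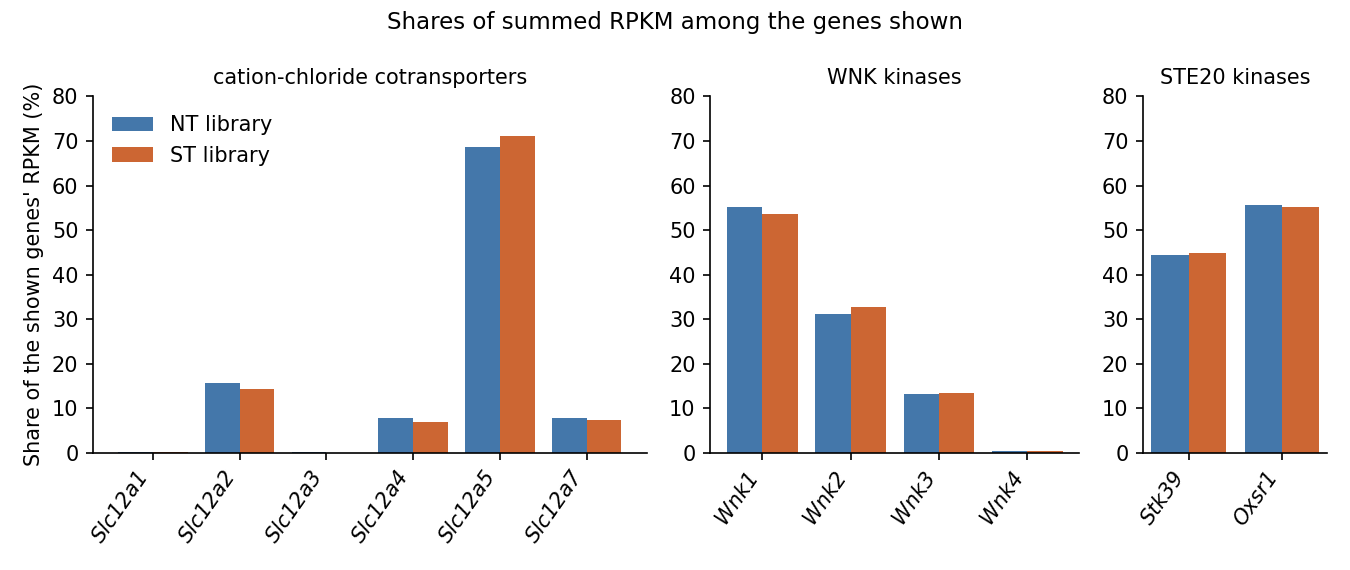
Bars give each gene's share of the summed RPKM of the genes shown (percent, axis from 0) in the NT and ST libraries, 1 library each, for 6 cation-chloride cotransporters, the WNK kinases and the STE20 kinases Stk39 and Oxsr1. Slc12a5 holds 68.7% and 71.2% and Wnk1 55.2% and 53.7% of these sums, and no share differs by more than a few percentage points between libraries. The WNK shares rest on the gene length behind the deposited RPKM of Wnk1, which is shorter than its annotated exons.

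The ST and NT libraries were then compared gene by gene. With 1 library per group there is no biological spread, so no test was made, and every difference is one between these libraries with no replicate check. Median-of-ratios size factors put both libraries on 1 scale, and each ratio of ST to NT carries a 95% counting interval, an exact Clopper-Pearson interval that covers counting error only. The libraries held 19476800 (ST) and 24790727 (NT) counts, and 14343 genes were measured (mean normalised count of 50 or more), among them all 8 genes described here, whose mean normalised counts ran from 705 to 11394.

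None of the 8 genes differed by 2-fold between the libraries (0 of 8, against 0.251% of all measured genes), and 0 of 8 differed by 1.2-fold, against 9.5% of all measured genes (3.37% higher and 6.13% lower in ST). The interval lay below 1 for 2 of the 8, Slc12a2 and Slc12a4, against 10.2% of all measured genes, and above 1 for 0 of the 8, against 7.79%. Among the 6622 genes with at least the mean count of the lowest of the 8, the shares were 12.8% below and 11.3% above. The median log2 ratio of the 8 genes was -0.08, with 5 lower and 3 higher in ST, and that of all measured genes was -0.0024, with 7295 lower and 7048 higher. The middle 50% of all measured genes lay between -0.08 and 0.07.

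Slc12a2, which encodes the importer NKCC1, had 2137 counts in ST and 3039 in NT, or 2401 and 2705 after normalisation. The ST level was 0.888 of the NT level (interval 0.839 to 0.938), a log2 ratio of -0.17. Of all measured genes, 11.8% had a lower ratio. The counting interval of Slc12a2 thus lay below 1, and a difference of this size or more was seen in 19.8% of genes. In the authors' deposited table its p-value was 0.194 and its adjusted p 1.

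Slc12a5, which encodes the neuronal exporter KCC2, had 10146 counts in ST and 12796 in NT, or 11398 and 11390 after normalisation. The ratio was 1.0007 with the narrowest interval of the 8, 0.975 to 1.03. At this depth a difference of more than 3% in either direction lies outside the counting interval. Of all measured genes, 99.3% were at least as far from 0.

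Both other exporters among the 8 had lower values in ST, with an interval below 1 for Slc12a4 only. Slc12a4 (KCC1) had 578 counts in ST and 854 in NT, 649 and 760 after normalisation, a ratio of 0.854 (0.767 to 0.950) and a log2 ratio of -0.23, the lowest of the 8. Of all measured genes, 7.86% had a lower ratio than Slc12a4. Slc12a7 (KCC4) had 816 counts in ST and 1124 in NT, 917 and 1000 after normalisation, and a ratio of 0.916 (0.836 to 1.004), so that its upper bound was just past 1. Slc12a4 and Slc12a7 have wider intervals than Slc12a2 because they rest on fewer counts.

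Both WNK kinases were close to equal. Wnk1 had 5097 counts in ST and 6305 in NT, 5726 and 5612 after normalisation, and a ratio of 1.02 (0.983 to 1.06). Wnk3, a neuronal WNK, had 1419 counts in ST and 1697 in NT, 1594 and 1511 after normalisation, and a ratio of 1.06 (0.983 to 1.13), the highest of the 8. Both intervals held 1.

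The kinases that relay the WNK signal were slightly lower in ST, with intervals that also held 1. Stk39 (SPAK) had 989 counts in ST and 1308 in NT, 1111 and 1164 after normalisation, and a ratio of 0.954 (0.878 to 1.04). Oxsr1 (OSR1) had 1314 counts in ST and 1779 in NT, 1476 and 1584 after normalisation, and a ratio of 0.932 (0.867 to 1.002), again just past 1 at its upper bound. In the authors' deposited table, the p-values of the 8 genes ran from 0.141 (Slc12a4) to 0.986 (Slc12a5) and the adjusted p was 1 for each.

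**Figure D3:**
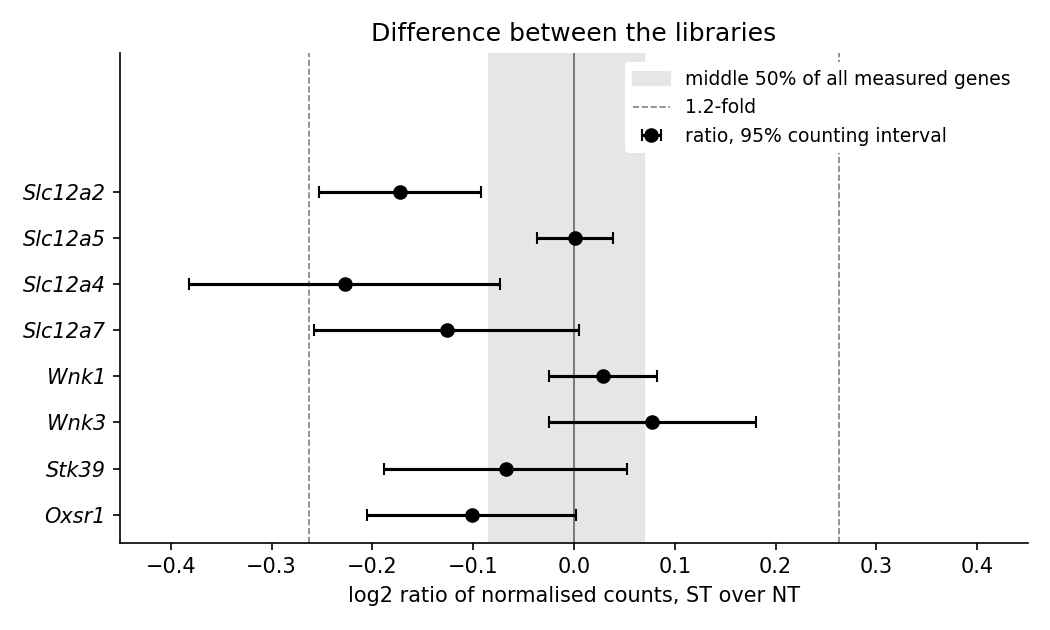
Log2 ratio of normalised counts, ST over NT, for each gene (points) with its 95% counting interval (bars), from 1 library per group; the grey band is the middle 50% of all measured genes and the dashed lines mark 1.2-fold. The intervals of Slc12a2 and Slc12a4 lie below 0, that of Slc12a5 is the narrowest, and no point reaches 1.2-fold.

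Ratios of pairs within a library do not depend on how the libraries are scaled. Per length, Slc12a5 was 4.95 times as abundant as Slc12a2 in ST and 4.39 times in NT. The Slc12a2 to Slc12a5 ratio in ST was thus 0.887 of that in NT, with an exact conditional interval of 0.834 to 0.943 that covers counting error only. The importer was lower relative to the neuronal exporter in the ST library, and of the 2 genes it was Slc12a2 whose own interval lay below 1. Summed per length, Slc12a4, Slc12a5 and Slc12a7 summed to 87.3 RPKM in ST and 88.4 in NT, or 5.93 and 5.38 times the Slc12a2 level. The Stk39 to Oxsr1 ratio in ST was 1.02 of that in NT (0.916 to 1.14), and the Wnk1 to Wnk3 ratio was 0.967 (0.892 to 1.05), both with intervals that held 1. For a pair chosen after the values had been seen, the Slc12a2 to Slc12a4 ratio was 1.04 (0.921 to 1.17), so these 2 genes were lower in ST to a like degree within an interval of that width.

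Some reads of these genes may be shared with other loci. The counts of Slc12a2 and Slc12a7 were whole numbers, and those of the other 6 were fractional, as when reads are divided between features. In the GENCODE vM1 annotation, exons of Slc12a5 overlap those of Gm11459, on the same strand, by 188 bases. Slc12a4 overlaps the opposite-strand transcript Gm16156 by 361 bases, and Wnk3 overlaps the opposite-strand transcript Gm15139 by 180 bases. These loci held 8.02 (Gm11459), 9.50 (Gm16156) and 1.78 (Gm15139) counts in ST, which is small beside the counts of Slc12a5, Slc12a4 and Wnk3. The Wnk1 exons overlap a pseudogene model of the same name by 534 bases, and exons of Stk39 and Oxsr1 overlap no other annotated exon. The sources used here do not say if reads were counted by strand.

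The rest of the pathway was described with lists of genes, of which 57 of 65 were measured. Of other SLC12 genes, 2 of 5 were measured, and 0 of them had an interval clear of 1, against 18% of all measured genes. Of 9 measured regulators of the WNK pathway and the cotransporters, 3 had an interval above 1 and 2 below, against 7.79% and 10.2% of all measured genes, and the median log2 ratio was 0.05. In this list, 2 genes stood past 1.2-fold on the higher side in ST, against 3.37% of all measured genes, and 0 on the lower side. Sgk1, a kinase induced by corticosteroids that acts on ion transport, was higher in ST, with 1210 counts against 1207 in the deeper NT library, a log2 ratio of 0.34 and a fold interval of 1.17 to 1.37. The other of these 2 genes, named after its values were seen, was Nedd4l, a ubiquitin ligase that acts on ion transporters, at a ratio of 1.203 with an interval that held 1 (0.998 to 1.45). Wnk2 was at 0.14 (1.04 to 1.16), whereas Neto2, an auxiliary protein of kainate receptors that binds KCC2, was at -0.17 (0.813 to 0.965). Ckb, the brain creatine kinase that also binds KCC2, had the highest level of the list at 532 RPKM in ST and 507 in NT, with a log2 ratio of 0.06. Sgk1 was thus the largest difference here with an interval clear of 1, and it exceeded that of each of the 8 genes.

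Other chloride, bicarbonate and volume transport genes had a median log2 ratio of -0.04 over 23 measured members, with 2 intervals above 1 and 7 of the 23 below. Over all measured genes 7.79% lay above and 10.2% below, and 12.8% lay below among genes with at least the mean count of the lowest of the 8. Past 1.2-fold in either direction were 0 members, against 9.5% of all measured genes. Ano6, a scramblase and ion channel, was at -0.24 (fold interval 0.750 to 0.957), and the carbonic anhydrase Car2, abundant in oligodendrocytes, at -0.22 (0.816 to 0.908). Lrrc8a, the obligate subunit of the volume-regulated anion channel, was at 0.17 (1.06 to 1.18), and Ttyh1, the most abundant of the list at 107 RPKM in ST and 108 in NT, at -0.01. Sodium pump subunits, which set the ion gradients that drive the cotransporters, had a median of 0.01 over 6 genes, with 2 intervals above 1 and 2 below, against the same 7.79% and 10.2%. Atp1b2, a subunit of astrocytes, was lower in ST at -0.10 (0.917 to 0.954). Atp1b1, the highest in level at 498 RPKM in ST and 496 in NT, was at -0.01.

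The receptors whose current depends on this chloride gradient were compared next. Of 17 measured GABA-A and glycine receptor subunits, 0 had an interval above 1 and 3 below, against 7.79% and 10.2% of all measured genes, and the median log2 ratio was -0.02. A single subunit was at least 1.2-fold lower in ST, against 6.13% of all measured genes: Glra1, named after its values were seen, with 43 counts in ST and 76 in NT, a ratio of 0.714 and an interval that held 1 (0.479 to 1.05). Gabrb2, farther from 0 than each of the 8 genes, was at -0.24 (fold interval 0.776 to 0.927), Gabrg1 at -0.09 (0.902 to 0.983) and Glrb, the subunit of highest level at 50.1 RPKM in ST and 52.4 in NT, at -0.08 (0.905 to 0.992). When the libraries were scaled to the median of neuronal markers, the medians of this list and of other SLC12 genes changed sign to 0.02 and 0.01. Each stayed between the medians of the single genes' lower and upper interval bounds, which are not an interval of the list median.

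Several of these genes are expressed in more than one cell type, so marker genes were set beside them. Neuronal markers had a median log2 ratio of -0.04 over 10 measured genes (8 of them lower in ST, range -0.11 to 0.06, summed RPM, reads per 1000000 counts, of 4621 in ST and 4710 in NT), among them Gad2 at -0.05 and Snap25 at -0.02. SCN markers, all 8 of which were measured, had a median of -0.12 with 6 of 8 lower (summed RPM 1278 in ST and 1276 in NT), among them Avp at 0.21 and Vip at -0.24. Oligodendrocyte and precursor markers, which mark cells known to express Slc12a2, were lower in 15 of 15 cases with a median of -0.28 (summed RPM 5242 in ST and 6450 in NT), among them Mbp at -0.33. Endothelial and mural markers were lower in 10 of 10 cases with a median of -0.33 (266 in ST and 335 in NT), among them Rgs5 and Flt1, each at -0.32. Meningeal and matrix markers were lower in 6 of 6 measured cases with a median of -0.80 (65.1 and 116), among them Igf2 at -0.98 and Col1a2 at -0.65. Microglial markers had a median of -0.27 with 8 of 8 lower (205 and 240), among them Csf1r at -0.15 and C1qa at -0.27. Astrocyte markers had a median of -0.11 with 6 of 8 lower (4388 and 4515), among them Glul at 0.07 and Slc1a2 at -0.06. Ependymal and choroid plexus markers were at 0.03 with 1 of 5 measured genes lower (152 and 146), among them Foxj1 at 0.02 and Ccdc153 at -0.02. No marker found in the table was at 0 in either library.

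The ratios of Slc12a2 (-0.17), Slc12a4 (-0.23), Slc12a7 (-0.13), Oxsr1 (-0.10) and Stk39 (-0.07) lay below the neuronal median. All of them lay above the oligodendrocyte, endothelial, microglial and meningeal medians and below the ependymal median (0.03). Slc12a2, Slc12a4 and Slc12a7 also lay below the SCN (-0.12) and astrocyte (-0.11) medians, whereas Oxsr1 and Stk39 lay above both. The ratios of Slc12a5 (0.00), Wnk1 (0.03), Oxsr1 and Stk39 lay within the range of the neuronal markers, and that of Wnk3 (0.08) lay above it. The part of non-neuronal cell types in the values of the genes lower in ST was not tested. In bulk tissue, fewer cells of a type and less RNA per cell cannot be told apart. When the libraries were scaled so that the neuronal marker median was 0, the intervals of Slc12a2 (0.861 to 0.963) and Slc12a4 (0.787 to 0.975) stayed below 1. On that scale the intervals of 3 of the 8 genes lay above 1, which they did not under the other scalings: Slc12a5 (1.0001 to 1.05), Wnk1 (1.01 to 1.09) and Wnk3 (1.01 to 1.16). That scaling shifts all ratios upward, and the share of all measured genes with an interval above 1 became 14.8%, and below 1 6.07%.

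**Figure D4:**
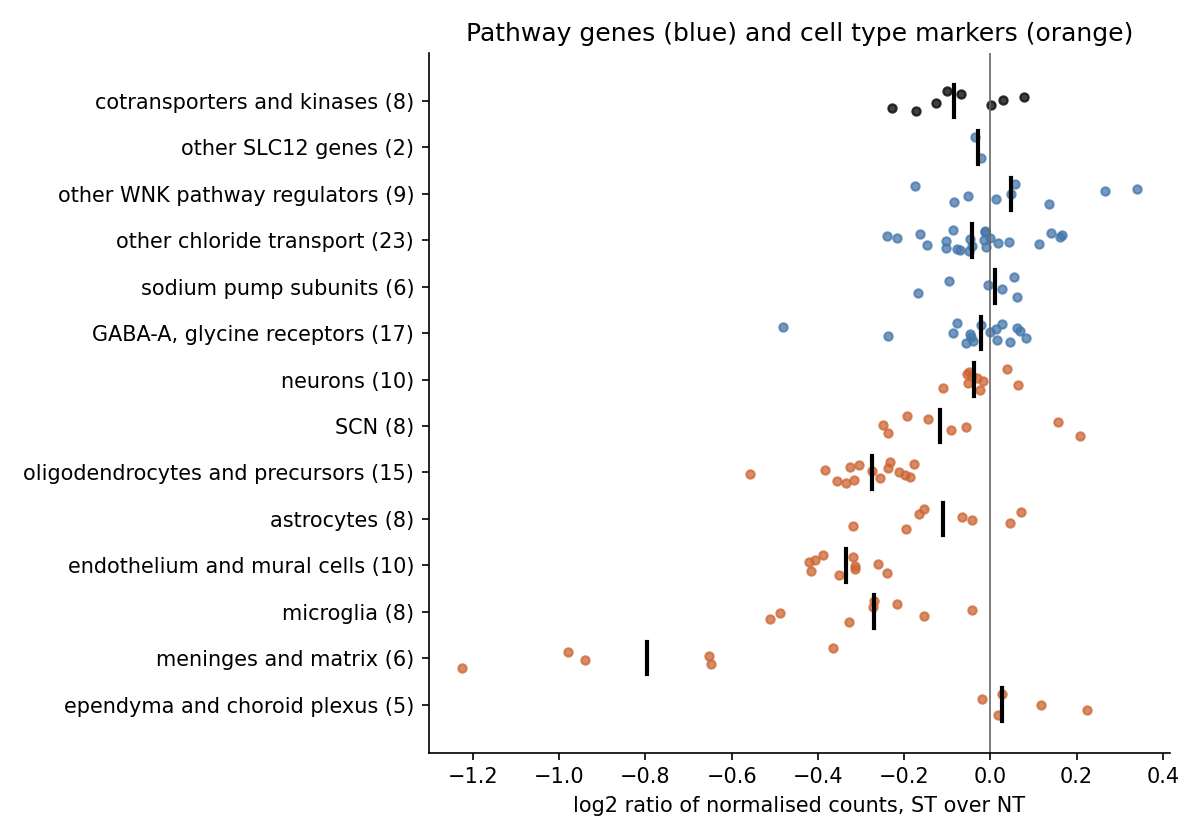
Log2 ratios, ST over NT, of the 8 cotransporter and kinase genes (black), of measured genes of the pathway lists (blue) and of cell type marker lists (orange), with each list's median as a vertical bar and the number of measured genes in brackets. The 8 genes lie between -0.23 and 0.08, while markers of oligodendrocytes, endothelium, microglia and meninges lie to the left of 0.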

How the data were processed

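Polyadenylated RNA from the SCN was sequenced in 1 library per group (NT and ST). Per the submitters' processing notes, CASAVA 1.8.2, TopHat 1.2, DESeq and the build mm9 were used, with no role or order given. The authors deposited estimated counts per gene (RC per the file headers), RPKM and RPM values, and their own fold change, log2 fold change, p-value and adjusted p-value of ST over NT, per the file headers. A further 3 columns of means were not used. Estimated counts were rounded to whole numbers. A count was taken as whole within 1e-06, and 42.4% (ST) and 43.1% (NT) of genes had fractional ones. Size factors were 0.890 (ST) and 1.12 (NT), and log2 ratios used a pseudocount of 0.5 on normalised counts. Intervals at the 95% level cover counting error alone, because each group has 1 library. No molecular identifiers are named, so copies of 1 molecule may have been counted more than once. The intervals would then be too narrow for counting error as well.

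Python 3.11.15, SciPy 1.17.1, and edgeR 4.0.16 (TMM only, as an alternative) were used, and the calculations were tested on simulated data. The genes and lists were chosen with earlier results of these data known. From each pathway list, the text names up to 3 genes with the largest log2 ratio among those with an interval clear of 1, and the gene of highest RPKM; from each marker list it names the 2 most abundant genes. The lists also held Klhl3 and Rbfox3, which were not matched by symbol. A few genes that this rule names are not reported here by name and stay in the counts and medians. With 2 libraries, no genes of similar pattern were sought. Annotation came from GENCODE vM1 (NCBIM37, the same assembly as mm9). Promoter coordinates are those of GRCm38.p6 and were not compared with mm9 positions.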

Additional observations from a re-analysis of the deposited data

How the results depend on the processing

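No paired analysis was possible because there is only 1 library in each group, which also means that no replicate could be omitted. Scaling by total counts, TMM or the neuronal marker median left the log2 ratio of each of the 8 genes within its counting interval and with its sign. The remaining settings could add little to this. Filters of 10 and 200 counts cannot change the ratio of a single gene, since the size factors used all genes with a count in both libraries. A pseudocount of 5 is small beside the counts of these genes, and the deposited RPM ratio repeats the total-count scaling. Over these settings, Slc12a2 ran from -0.17 to -0.14, Slc12a4 from -0.23 to -0.19 and Slc12a5 from 0.00 to 0.04. Scaling to the neuronal marker median gave 3 genes with an interval above 1 in place of 0, and a sodium pump median of 0.047. It moved ratios by 0.037 on the log2 scale, and total counts by 0.012. With whole counts only, 1 gene (Slc12a2) had an interval below 1, since 2 of the 8 genes were left. With the length of annotated exons, added after the data had been seen, Slc12a5 was 4.06 (ST) and 4.14 (NT) times as abundant as Wnk1. On that scale Wnk1 stood at 1.06 and 0.925 times Slc12a2, and Slc12a2 at 1.33 and 1.40 times Oxsr1. These moves follow from the longer Wnk1 and the shorter Slc12a2 model. The other 140 alternative values stayed within the counting interval or within 1.5 times the count. For list medians, that interval ran between the medians of the single genes' lower and upper bounds. Some of these values could not move, such as the single-gene ratios under both filters. Depth limits the ratio of Slc12a4 to an interval of 0.767 to 0.950, against 0.975 to 1.03 for Slc12a5.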
